A study of Mus musculus with 24 samples.

Results

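Integrins are heterodimers of an α and a β chain that bind cell surface and matrix ligands, most firmly after signals inside the cell have switched them to an open form. On T cells, α4β1 binds VCAM-1 and fibronectin, α4β7 binds MAdCAM-1 of the gut vessels, αEβ7 binds E-cadherin of epithelia, αLβ2 (LFA-1) binds ICAMs, and α1β1 and α2β1 bind collagens and laminins. CD44 is no integrin: it binds hyaluronan and marks T cells that have met antigen. LFA-1 is known for holding iNKT cells in the sinusoids of the liver, through which these cells crawl. The 9 genes described here are Itga4, Itgb1, Itgb7, Itga1, Itga2, Itgae, Itgal, Itgb2 and Cd44. They were chosen by name, with earlier results of these data known, out of 55401 genes in the count tables. All 9 were found in the tables.

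The cells were liver-resident invariant natural killer T (LiNKT) cells of NOD mice, which become diabetic through autoimmunity without any treatment, sorted from the liver as live TCRβint cells that bound αGalCer/CD1d tetramers. They came from untreated mice or from mice injected repeatedly with αGalCer/CD1d-NPs, which are iron oxide nanoparticles that carry CD1d molecules loaded with the glycolipid αGalCer. Gene counts of single cells (SmartSeq2) came from 3 untreated and 3 treated male mice of 13 to 15 weeks. DNA methylation (whole genome bisulfite sequencing) came from 7 untreated female mice of 17 weeks and from 4 treated mice of 16 weeks whose sex is not given, sorted as 3 replicates per group that the deposited tables merge into 1 value, so that treatment, age and possibly sex cannot be told apart there. Chromatin fragments of single nuclei (multiome) came from 5 untreated and 4 treated male mice of 13 to 15 weeks, as the methods of the study give. A figure legend of the study gives a younger age and a vehicle control for these mice. The mice of a group were not separated in any table, so that every group is 1 sample, or 1 merged value for methylation, and no comparison below has a replicate check or a test. The intervals given are 95% intervals, exact Poisson for counts and insertions and exact Clopper-Pearson for shares, and they cover counting error only. Each read and each end of a fragment was counted as independent, so that the Poisson intervals are too narrow.

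In the SmartSeq2 tables, 273 untreated cells (172559865 counts, median of 635257 per cell) and 251 treated cells (149084200 counts, median of 599896) had a sub-cluster assigned by the study and were used. Levels are given as CPM, the counts of a gene per 1000000 counts of all cells of a group together, and a read is not a molecule, since SmartSeq2 adds no molecular identifiers. The median log2 ratio over all genes that passed the filter was 0.02. Reads on T and iNKT cell markers (Cd3e, Zbtb16, Il2rb and 5 others) were present in all 273 untreated cells and in 239 of the 251 treated ones, and the levels of all 8 markers passed the filter and differed by less than 2-fold. In shares of cells with a read, however, 2 of the 8 were more than 10 points lower in treated cells, a difference found in 2.41% of the genes read in enough cells to be compared in this way: Il2rb, the interleukin 2 receptor beta chain, was read in 82.1% of untreated and 62.2% of treated cells, and Thy1 in 67.0% and 56.6%. The 4 macrophage markers summed to 0.0116 CPM (2 cells) without treatment and to 1812 CPM (11 cells) with it, of which Lyz2 made up 1688 CPM. The 3 NK cell markers (Ncr1, Klra8 and Eomes), which liver iNKT cells share in part, were read in 18 untreated cells (summed to 197 CPM) and 78 treated cells (791 CPM). The 4 hepatocyte markers were at 0 in untreated cells and summed to 82.3 CPM in 3 treated cells. B cell and platelet markers stayed at 0 to 0.121 CPM in both groups. Of the 4 endothelial markers, Cdh5, Kdr and Stab2 were at 0 in both groups, and the fourth, Pecam1, which T cells also express, was at 1.05 and 18.5 CPM. The values of the members without the cells that carried macrophage or hepatocyte markers are given below, and the part of the NK cell markers was not tested.

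Itga4 was the member that differed most between the groups. It encodes the α4 chain, which is shared by α4β1 and α4β7. It was read in 8 of 273 untreated cells (2.93%, 1.27 to 5.69) and in 57 of 251 treated cells (22.7%, 17.7 to 28.4). The summed level was 28.1 CPM (27.3 to 28.9) without and 292 CPM (289 to 294) with treatment. This is a log2 ratio of 3.33 (10.0-fold on the scale of CPM plus 1). The intervals of the shares did not overlap. The cells that carried Itga4 held a median of 638 CPM (14.3 to 3303) among untreated and 560 CPM (1.80 to 5815) among treated cells. Over the whole groups, the number of cells with reads thus differed more than the median level of such cells, which rests on 8 cells in the untreated group. The cell with most reads held 29.7% of the untreated and 11.3% of the treated reads. Without the cell with the highest CPM of Itga4 in each group, which was another cell, the levels were 20.4 and 266 CPM.

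The β chains that pair with α4 were read in many cells of both groups. Itgb1, whose β1 chain is shared by α4β1, α1β1 and α2β1, was at 202 CPM in untreated LiNKT cells and at 186 CPM in treated ones (log2 ratio of -0.12) and was read in 19.4% and 23.1% of the cells. Itgb7, whose β7 chain pairs with α4 or αE, was at 968 and 1032 CPM (0.09) and was read in 33.0% (27.4 to 38.9) and 27.9% (22.4 to 33.9) of the cells. The intervals of the shares overlapped for both genes. Both β chains were therefore read in untreated cells in which the shared α4 chain was rarely read.

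The collagen-binding α chains were less abundant. Itga1 (α1) was at 77.8 CPM in untreated LiNKT cells and at 178 CPM in treated ones, a log2 ratio of 1.18. It was read in 21 untreated (7.69%, 4.82 to 11.5) and 29 treated cells (11.6%, 7.88 to 16.2), shares whose intervals overlapped. Itga2 (α2) was at 6.34 and 15.4 CPM, a log2 ratio of 1.16, but was read in 7 untreated and only 5 treated cells. A single treated cell held 62.1% of its reads, and without the cell with most reads in each group the levels were 4.30 and 5.87 CPM. Itgae, whose αE chain marks T cells that reside in epithelia, had no reads in untreated cells (0 of 273, with a Clopper-Pearson limit of 1.34%, and of 1.10% if a count of 0 is taken as up to 3). It had 220 reads in 1 of 251 treated cells and did not pass the filter.

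Itgal and Itgb2, which together encode LFA-1, were the members read in most cells. Itgal (αL) was at 843 CPM in untreated LiNKT cells and at 761 CPM in treated ones (log2 ratio of -0.15), in 42.5% and 44.2% of the cells. Itgb2 (β2) was at 1509 and 1594 CPM (0.08), in 42.9% and 43.8% of the cells. The levels of both chains differed by at most 1.11-fold, and the intervals of their shares overlapped. Cd44 was at 167 and 201 CPM (0.27), but was read in fewer treated than untreated cells: 50 of 273 (18.3%, 13.9 to 23.4) and 36 of 251 (14.3%, 10.3 to 19.3), again with overlapping intervals. The cells that carried Cd44 held a median of 445 CPM among untreated and 1078 CPM among treated cells.

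Of the 8 members that passed the filter (a mean of at least 5 CPM over the groups), 3 were at least 2-fold higher in treated cells (Itga4, Itga1 and Itga2) and none was 2-fold lower. Over all genes tested the percentages were 20.6% higher and 18.4% lower, so that ratios of this size were frequent among all genes. By the share of cells, 1 of the 7 members that passed (read in at least 5% of all cells) was at least 10 points higher in treated cells, which was Itga4 at 19.8 points. Only 1.26% of the 4115 genes tested reached this, and 2.41% were at least 10 points lower, with no member among them. Per kb of exon, the order of the levels in untreated cells was Itgb2 (494 CPM per kb), Itgb7 (349), Itgal (128), Itgb1 (49.5), Cd44 (24.6), Itga1 (4.18), Itga4 (2.01), Itga2 (0.889) and Itgae. In treated cells Itga4 stood at 20.9 CPM per kb, above Itga1 (9.57) and next to Cd44 (29.7), and the order of the others was kept. With 1 sample per group, the spread that would separate neighbours in this order is not known.

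**Figure D1:**
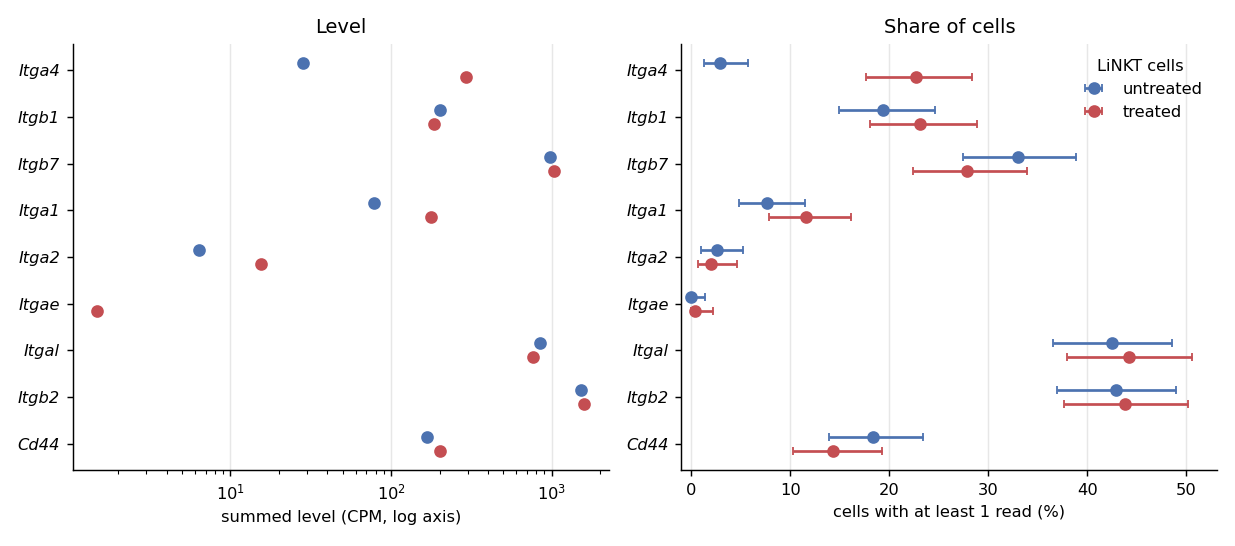
Summed level (CPM, log axis; a level of 0 is not drawn) and share of cells with at least 1 read (%) of the 9 members in untreated and treated LiNKT cells. Bars are 95% Clopper-Pearson intervals of the shares and cover counting error only; Itga4 is the only member whose intervals do not overlap (2.93% and 22.7%).

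The study assigned the cells to sub-clusters by their expression, so that the values by sub-cluster are a description. Among the treated cells, sub-cluster 5 (57 cells) carried Il10 in 43.9% and Lag3 in 73.7% of its cells and had no reads on Gzma. Il10 and Lag3 were also read in 9.84% and 11.5% of treated sub-cluster 2 and in 0.752% and 5.26% of treated sub-cluster 4. Sub-cluster 4 (133 treated cells) carried Gzma in 69.9% of its cells. Sub-cluster 2 held 228 of the untreated cells and 61 of the treated cells. Itga4 was read in 1 of 228 untreated cells of sub-cluster 2 (0.439%, 0.0111 to 2.42) and in 7 of 43 untreated cells of sub-cluster 4 (16.3%, 6.81 to 30.7). In treated cells it was read in 10 of 61 cells of sub-cluster 2 (16.4%, 8.15 to 28.1), 28 of 133 of sub-cluster 4 (21.1%, 14.5 to 29.0) and 19 of 57 of sub-cluster 5 (33.3%, 21.4 to 47.1). All treated sub-clusters thus held cells with Itga4, as did the 43 untreated cells of sub-cluster 4. Its level was 10.1 CPM and 121 CPM in untreated sub-clusters 2 and 4, and 216, 148 and 665 CPM in treated sub-clusters 2, 4 and 5. The treated cells that carried Itga4 held a median of 324 CPM in sub-cluster 2, 279 CPM in sub-cluster 4 and 1397 CPM in sub-cluster 5, as compared to 273 CPM in untreated sub-cluster 4. Within sub-cluster 4, the untreated and treated shares had overlapping intervals and the log2 ratio was 0.29, below 2-fold. Within sub-cluster 2 they did not overlap, and the log2 ratio was 4.29.

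Except for Itgae, which was read in sub-cluster 5 alone and there in 1 cell, the other members were read in treated cells of sub-clusters 2, 4 and 5. Itga1 was read in 21 of 133 treated cells of sub-cluster 4 (15.8%, 10.0 to 23.1) and in 2 of 57 of sub-cluster 5 (3.51%, 0.428 to 12.1), with levels of 273 and 21.8 CPM. A single cell held 99.8% of the Itga1 reads of sub-cluster 5, and without it the level there was 0.0546 CPM. Itgb7 was read in 36.1% of treated sub-cluster 4, 24.6% of sub-cluster 5 and 13.1% of treated sub-cluster 2, where untreated sub-cluster 2 had 33.3% and the intervals of sub-cluster 2 did not overlap. Its level went in opposite directions, from 1004 CPM in untreated to 507 CPM in treated sub-cluster 2 and from 682 to 1461 CPM in sub-cluster 4, which the even sums over the groups do not show. Among treated cells the share of Itga4 was thus highest in sub-cluster 5 and those of Itga1 and Itgb7 in the Gzma-rich sub-cluster 4, but for each of these genes the intervals of sub-clusters 4 and 5 overlapped. Itgal, like Itga4, had its highest share in sub-cluster 5 (56.1%, 42.4 to 69.3), as compared to 45.9% (37.2 to 54.7) in sub-cluster 4 and 29.5% (18.5 to 42.6) in treated sub-cluster 2, and these intervals overlapped as well. Its level, unlike that of Itga4, was highest in treated sub-cluster 4 (908 CPM, as compared to 595 and 596 CPM in sub-clusters 2 and 5). Treated sub-cluster 2 also had the fewest genes per cell and sub-cluster 5 the most (medians of 777, 842 and 967 in sub-clusters 2, 4 and 5). The part of this depth in the shares of these sub-clusters was not tested. In untreated sub-clusters 2 and 4, Itgb1 was read in 18.9% and 23.3% of the cells. Itgal was read there in 41.7% and 48.8% and Cd44 in 18.0% and 20.9%. Each of these intervals overlapped that of the same treated sub-cluster. The level of Itga1 was 2-fold higher with treatment within sub-cluster 4 (log2 ratio of 1.38) but not within sub-cluster 2 (0.77). Itgb1 was read in 31.1% of treated sub-cluster 2, 16.5% of sub-cluster 4 and 29.8% of sub-cluster 5. Cd44 was read in 18.0%, 10.5% and 19.3% of the same cells, but its level was lowest in sub-cluster 5 (228, 234 and 107 CPM). The treated cells that carried Cd44 held a median of 1182, 2303 and 73.8 CPM in sub-clusters 2, 4 and 5.

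**Figure D2:**
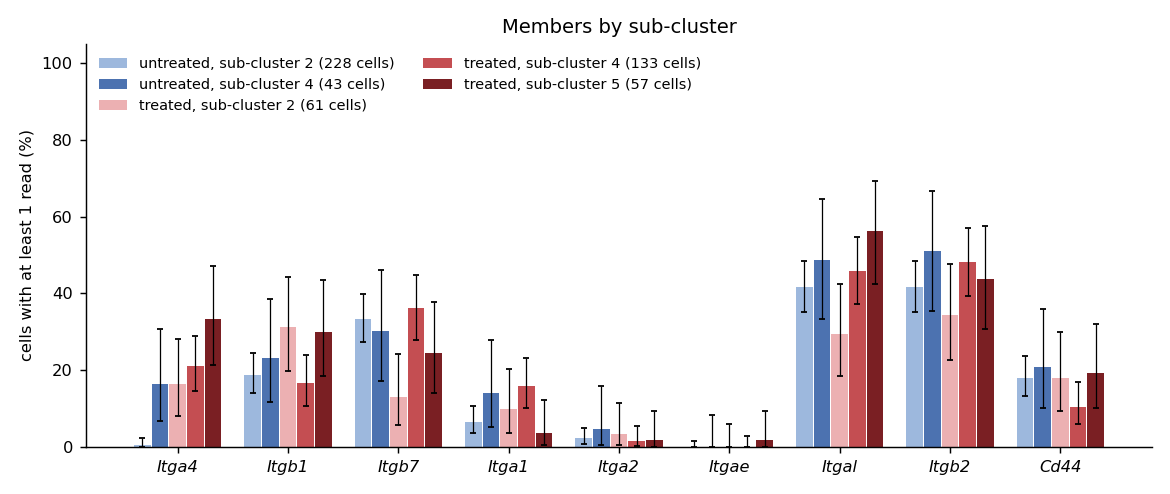
Share of cells with at least 1 read (%) for each member in the untreated and treated cells of each sub-cluster, with 95% Clopper-Pearson intervals that cover counting error only. For Itga4 the bar of untreated sub-cluster 2 is at 0.439% and that of treated sub-cluster 5 at 33.3%; Itga1 is low in sub-cluster 5 (3.51%).

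An integrin needs both of its chains. Reads on Itga4 and Itgb1 were found together in 1 untreated and 14 treated cells (5.58%, 3.08 to 9.18), and reads on Itga4 and Itgb7 in 2 untreated and 17 treated cells (6.77%, 3.99 to 10.6). The products of the shares of the single chains in treated cells were 5.25% and 6.33%, which lie inside the intervals of the shares of both pairs. Itgal and Itgb2 were found together in 56 untreated (20.5%) and 50 treated cells (19.9%), where the products were 18.2% and 19.4%. Itga1 and Itgb1 met in 3 cells of each group, Itga2 and Itgb1 in 3 untreated and 2 treated cells, and Itgae and Itgb7 in 1 treated cell. No chain was read in all cells of a group, and a cell without reads on a chain need not lack it. At least 3 of the 9 members were read in 67 untreated (24.5%) and 74 treated cells (29.5%).

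The names of the cells carry the number 1 or 2, which was read here as a sequencing lane, although no label says so. Itga4 was read in 1.09% of untreated and 19.7% of treated cells on lane 1, and in 6.74% and 29.5% on lane 2. Its difference was therefore found on both lanes. Cd44 was read in 13.0% and 13.9% of cells on lane 1 but in 29.2% and 15.4% on lane 2. Itgb2 was read in 39.7% and 35.3% on lane 1 and in 49.4% and 62.8% on lane 2, so that the lanes differ in direction for its share. Itga1 was at 64.3 and 200.4 CPM on lane 1 and at 103 and 129 CPM on lane 2, where it no longer differed by 2-fold. Itga2 was higher in treated cells on lane 1 (2.28 and 18.0 CPM) and lower on lane 2 (14.02 and 9.67 CPM). Of the 57 treated cells with Itga4, 4 also had reads on a macrophage or hepatocyte marker and 54 had reads on Cd3e, Cd3d or Cd3g. Without the 2 untreated and 14 treated cells that carried such markers, Itga4 was at 28.3 CPM in untreated LiNKT cells and at 303 CPM in treated ones (8 of 271 and 53 of 237 cells), which is as large as with them. The log2 ratios of Itga1 (1.25) and Itga2 (1.22) also stayed above 2-fold without these cells, and those of the other members that passed lay between -0.18 (Itgb1) and 0.18 (Itgb7 and Cd44). With each cell thinned to 200000 reads, which left out 6 untreated and 8 treated cells, the difference in the share of Itga4 was 20.4 points.

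Correlations with Itga4 from cell to cell were low. They cannot show how closely a gene followed it, since most cells of both groups had no Itga4 reads. The genes with the highest Spearman correlation with it, over single cells and among genes with reads in 10% or more of a group, were Klra1 (0.31), Klra13-ps (0.30) and Klra4 (0.28) over the 273 untreated cells. These belong to the Ly49 family of NK receptor genes, which holds near-identical copies, so that the counts of single copies are uncertain. Over the 251 treated cells they were Gm6375 (0.26), Acta1 (0.25) and Hnrnpa3 (0.24). The other members correlated with Itga4 between -0.08 and 0.07 in untreated and -0.01 and 0.14 in treated cells. The counts per cell ran from 20512 to 1398716 in untreated and from 4056 to 1035608 in treated cells. The part of this depth in the correlations was not tested. Only 8 untreated cells carried Itga4, 7 of them in sub-cluster 4, and these values are weak. With so few cells, the coefficient stays low even for a gene read in all of them and in many others.

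Whether the counting used the strand is not given in the sources used here, so that reads of a member and of a gene that overlaps it cannot be told apart. The overlapping genes were at low levels. Cerkl, which overlaps Itga4 on the opposite strand, was at 2.67 CPM in untreated LiNKT cells and at 1.13 CPM in treated ones. Haspin, which lies inside Itgae, was at 7.68 and 0.973 CPM, and Pelo and the antisense gene Gm10734 of Itga1 were at no more than 11.8 CPM.

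DNA methylation was next read around the members. Differentially methylated regions (DMRs), as called by the authors at a q-value of at most 0.05, were paired with a member if they lay within 50 kb of its body. There were 17 such regions, of which 13 had less methylation in treated than in untreated mice (hypo-methylated) and 4 had more (hyper-methylated). A hypo-methylated region lay near 5 of the 9 members (Itga4, Itgb1, Itga2, Itgb2 and Cd44), as compared to 11.3% of all genes. A hyper-methylated region lay near 1 (Itgb7), as compared to 6.92%. Long genes hold more regions, and the bodies of the members differ in length up to 149 kb (Itga1), which was not taken into account. Itgae, Itgal and Itga1 had no region. These are bulk samples, in which other cells and other methylation per cell cannot be told apart. The read depth behind the fractions is unknown, and the sex and age of the mice differed as described above.

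Sequences of 4 regions at Itga4, Itgb1 and Itgb7 are shown to give the CpGs in their context. Each is the stretch of at most 300 bases of a DMR that is richest in CpG, read on the plus strand of GRCm38 (C57BL/6J, whereas the cells are of the NOD strain), with each CpG in capitals. The Itga4 stretches show how sparse its CpGs are, and the stretch at Itgb7 shows a denser one.
Itga4 region 2 (chr2:79258775-79259074): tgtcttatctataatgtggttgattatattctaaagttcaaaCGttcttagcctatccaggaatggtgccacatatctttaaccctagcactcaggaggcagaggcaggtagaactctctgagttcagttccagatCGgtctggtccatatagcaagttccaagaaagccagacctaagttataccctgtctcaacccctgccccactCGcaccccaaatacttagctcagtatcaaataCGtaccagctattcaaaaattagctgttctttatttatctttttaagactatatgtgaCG
Itga4 region 4 (chr2:79267365-79267664): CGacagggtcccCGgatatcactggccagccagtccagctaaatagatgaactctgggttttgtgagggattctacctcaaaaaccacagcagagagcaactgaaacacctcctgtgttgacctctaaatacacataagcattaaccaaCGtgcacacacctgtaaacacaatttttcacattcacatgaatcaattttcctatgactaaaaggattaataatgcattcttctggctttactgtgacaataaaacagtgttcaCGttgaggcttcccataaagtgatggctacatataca
Itgb1 region 2 (chr8:128647556-128647835): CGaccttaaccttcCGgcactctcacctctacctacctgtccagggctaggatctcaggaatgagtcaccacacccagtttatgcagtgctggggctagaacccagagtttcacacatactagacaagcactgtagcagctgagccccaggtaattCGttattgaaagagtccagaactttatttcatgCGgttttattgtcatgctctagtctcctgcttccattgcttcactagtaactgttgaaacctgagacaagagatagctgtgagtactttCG
Itgb7 region 1 (chr15:102207865-102208164): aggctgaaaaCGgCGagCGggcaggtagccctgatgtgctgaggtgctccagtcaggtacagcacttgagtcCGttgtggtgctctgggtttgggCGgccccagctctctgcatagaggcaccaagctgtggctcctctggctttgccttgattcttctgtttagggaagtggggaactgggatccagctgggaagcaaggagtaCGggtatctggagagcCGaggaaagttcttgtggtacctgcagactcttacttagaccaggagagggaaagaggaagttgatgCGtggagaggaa

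Itga4 (chr2:79255426-79333123, plus strand) held 4 hypo-methylated regions, all in the start of its body. In region 1 (chr2:79256969-79257637, 1.54 kb from the transcription start) methylation was 31.1% in untreated and 9.03% in treated mice over 18 CpG sites (cytosines of CpGs, counted on each strand), each of which was lower in treated mice. In region 2 (chr2:79258030-79259074, 2.60 kb from the start) it was 67.4% and 19.5%, and 20 of 21 sites were lower. Region 3 (chr2:79262568-79264024) was at 84.7% and 44.4%, and region 4 (chr2:79267365-79268377, 11.9 kb from the start) at 82.5% and 44.4%. Methylation of untreated cells was thus lowest next to the start and higher further inside, and each region was lower in treated cells. Regions 2 to 4 are intronic. Region 1 is intronic in the coding transcripts and lies in an exon of 1 non-coding transcript (Itga4-205).

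Itgb1 (chr8:128685654-128733200, plus strand) also held hypo-methylated regions, although its level did not differ by 2-fold. The 4 in its body, all intronic, were at 46.4% and 14.7% (region 3, chr8:128687134-128687791, 1.48 kb from the start), 86.3% and 38.4% (region 4, 3.77 kb), 79.0% and 36.3% (region 5, 6.78 kb) and 82.8% and 54.8% (region 6, 17.4 kb). Region 2 (chr8:128647556-128647835), 37.8 kb before the gene and outside any gene, was at 80.4% and 30.2%, the largest difference among the 17 regions (-50.3 points). The sequence of the whole region 2 is given above. Region 1, also hypo-methylated, lay 71.7 kb before the gene, beyond the 50 kb used here.

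Cd44 (chr2:102811141-102901665, minus strand) had the next largest difference. In region 1 (chr2:102853033-102853664), 48.0 kb from the start, methylation was 82.7% in untreated and 34.1% in treated mice over 21 sites, each lower in treated mice, and 204 of its 632 bases are exonic. In region 2, 40.2 kb before the gene, it was 91.7% and 70.8%. Itga2 (chr13:114833081-114932100, minus strand) had an intronic region at 89.1% and 52.2% (chr13:114878696-114879356, 52.7 kb from the start). Itgb2 (chr10:77530252-77565708, plus strand) had an intronic region at 46.8% and 25.9% (chr10:77534596-77534905, 4.34 kb from the start). Cd44, Itga2 and Itgb2 were thus hypo-methylated inside their bodies, and of these only Itga2, with few cells, differed in level by 2-fold.

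At Itgb7 (chr15:102215995-102231944, minus strand) all 4 regions had more methylation in treated mice. Region 2 (chr15:102224432-102224745), 7.20 kb from the start, is exonic in 229 of its 314 bases and holds 29 CpGs. It was at 13.0% in untreated and 29.8% in treated mice, with 58 of 59 sites higher. Region 1 (chr15:102207524-102208388) lies 7.61 kb after the end of Itgb7 inside Zfp740, which encodes a zinc finger protein, and was at 15.7% and 39.4%. Regions 3 and 4 lie before the start of Itgb7, inside Rarg, which encodes a retinoic acid receptor, and were at 26.8% and 56.7% (3.43 kb away) and at 12.1% and 37.8% (12.3 kb away). Regions inside a neighbour need not belong to Itgb7. Of the 231 CpG sites in hypo-methylated regions of the members, 229 were lower in treated mice, and of the 148 in hyper-methylated regions, 145 were higher, as the calling of regions requires. The cytosines outside CpGs in these regions were at 1.23% to 2.21% in untreated and 1.38% to 3.22% in treated mice, and higher in treated mice in 14 of the 17 regions.

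**Figure D3:**
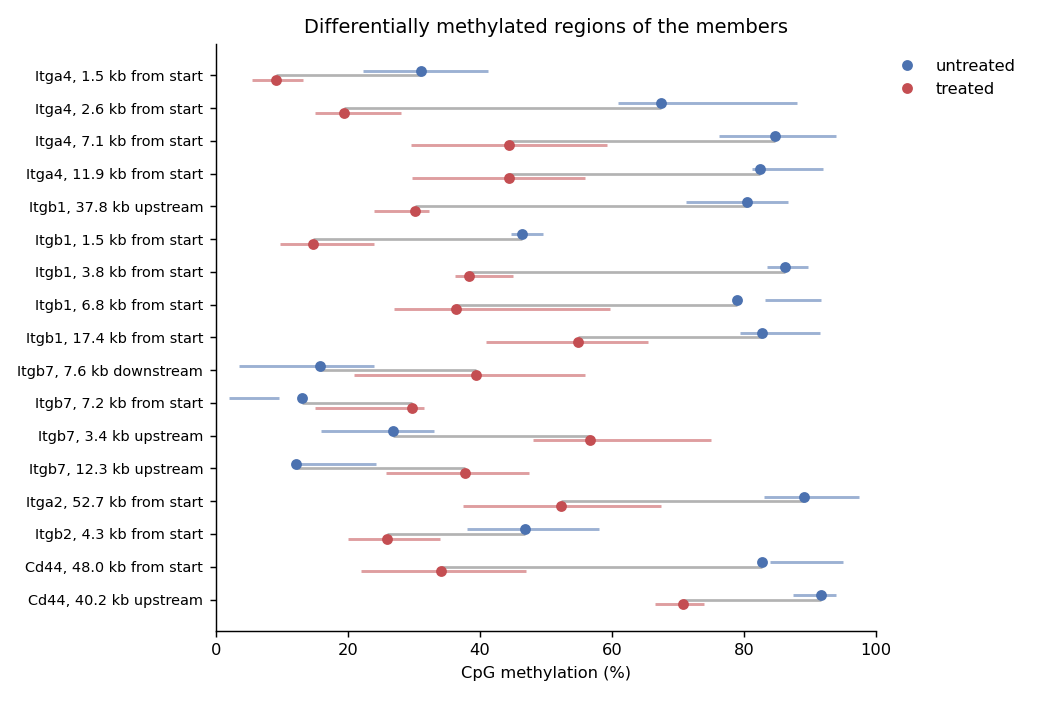
CpG methylation (%) of the 17 regions within 50 kb of a member in untreated and treated mice. Points are the authors' mean fractions of a region, coloured lines run from the lower to the upper quartile of its CpG sites, and grey lines join the groups; in the 4 Itgb7 regions alone the treated point lies to the right.

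Such stretches of all 17 regions were searched for motifs on both strands. TGANTCA (AP-1) was found in 3 of the 13 hypo-methylated windows, namely Itga4 region 4, Itgb1 region 2 and Itga2, and in none of the 4 hyper-methylated ones. The share over all DMRs of at least 300 bases was 29.3% of hypo-methylated and 5.21% of hyper-methylated windows. TGTGGT (Runx) was found in 4 of 13 and 1 of 4 (25.1% and 31% over all), TCACAC (T-box) in 3 of 13 and 1 of 4 (24.9% and 19.0%), and GGAAGT (ETS) in 1 of 13 and 1 of 4 (17.9% and 28.3%). A match is not a bound site. The windows of Itga4 held 3 to 5 CpGs each, as compared to a median of 6 in hypo-methylated windows.

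In the multiome, a transposase cuts open DNA and each cut is an insertion, given here per 1000000 insertions of the kept barcodes with the same ending (IPM). The fragments of both groups are pooled in the deposited table, with barcodes that end in 1 or 2, and no source used here says which group an ending is. The endings are therefore compared as endings. There were 8565 barcodes of ending 1 (162817764 insertions) and 7237 of ending 2 (149740716) with at least 1000 fragments, and 100 barcode sequences occurred in both. The promoter of Itga4 (2 kb on either side of its start) held 22.0 IPM (21.3 to 22.7) in ending 1 and 57.5 (56.3 to 58.8) in ending 2. This 2.62-fold difference lay at percentile 96.8 of all promoters. It was cut in 15.2% of the barcodes of ending 1 and 36.1% of those of ending 2. Itga4 thus had the most uneven promoter of the 9 members. Promoters of marker genes differed between the endings too, namely those of Il10 (3.72 and 28.9 IPM), Il21 (1.41 and 20.6), Lag3 (5.95 and 38.1) and Pdcd1 (17.6 and 35.4). Of the NK cell markers, Ncr1 was at 1.48 and 6.53 IPM, Eomes at 3.97 and 10.5 and Klra8 at 0.233 and 0.274. All macrophage markers were higher in ending 2. Cd68 was at 6.55 and 13.7 IPM, and the others were far lower: Lyz2 at 0.289 and 0.467, C1qa at 0.184 and 0.347 and Csf1r at 0.117 and 0.354. The T and iNKT cell markers were closer, such as Cd3e (61.3 and 63.5) and Zbtb16 (45.7 and 41.6). The part of such cells in the values of the members was not tested.

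The other promoters were nearly even, apart from Itgae. The promoter of Itgae was hardly open, at 1.505 and 2.504 IPM (1.66-fold). Of the 9 members, 2 promoters had at least 1.5-fold more insertions in ending 2 (Itga4 and Itgae), as compared to 12.1% of 16328 promoters, and none had fewer, as compared to 2.6%. For the other 7 members, the log2 ratio lay between -0.23 (Itga2) and 0.16 (Itga1). The promoters of Itgal (40.1 and 44.1 IPM) and Itgb2 (41.8 and 45.1) were the most open in ending 1, and Itga4 passed both in ending 2. In 500-base bins, the highest value at Itga4 lay just before its start, with 13.6 IPM per kb in ending 1 and 36.6 in ending 2. A second peak, centred 11250 bases inside the gene and just before region 4, held 4.79 and 12.6. At Itgb7 the highest peak lay not at the start but 6750 bases inside, just before region 2, with 40.1 in ending 1 and 32.4 in ending 2.

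**Figure D4:**
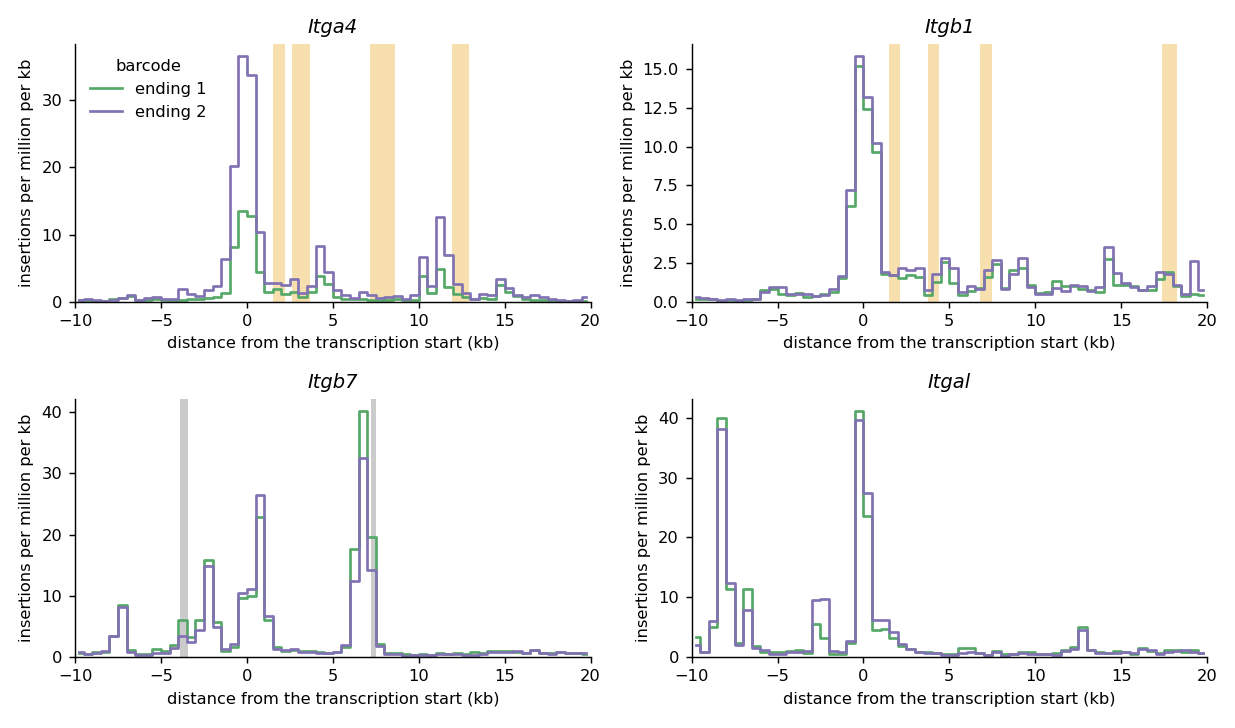
Insertions (IPM per kb) in bins of 500 bases from 10 kb before to 20 kb after the start of Itga4, Itgb1, Itgb7 and Itgal, by barcode ending. Orange bands are hypo-methylated and grey bands hyper-methylated regions; at Itga4 the curve of ending 2 reaches 36.6 at the start and that of ending 1 13.6, whereas the curves lie close together at the starts of the other genes.

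Insertions in the DMRs also differed between the endings. In 12 of the 13 hypo-methylated regions ending 2 held more insertions per kb than ending 1, as compared to 93.8% of 1951 hypo-methylated regions with insertions, and 9 of them differed by at least 1.5-fold, as compared to 83.6%. More insertions in ending 2 were thus common to hypo-methylated regions and not particular to those of the members. In Cd44 region 1 the values were 2.02 (1.76 to 2.32) and 8.22 (7.65 to 8.82) IPM per kb, a 4.07-fold difference, and in ending 2 the region stood 22.97-fold above its flanks (5 to 10 kb away). Cd44 region 2 (0.282 and 2.61, 9.24-fold) and the Itga2 region (1.44 and 7.68, 5.33-fold) were more uneven still, while the promoters of both genes were nearly even. Cd44 region 2, however, held only 22 insertions in ending 1, and in ending 2 it was at 0.995 of the level of its flanks. These regions of Cd44 and Itga2 therefore differed without their promoters. Itgb1 region 2, before the gene, held 2.22 and 5.80 (2.62-fold), and of the regions inside Itgb1, region 4 differed by 1.57-fold (0.957 and 1.498) and regions 3, 5 and 6 by less than 1.1-fold.

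In the regions of Itga4 the insertions were 1.62, 2.17, 3.06 and 2.57-fold more frequent in ending 2, in order from the start. They were low in number, with 0.223 IPM per kb in ending 1 and 0.683 in ending 2 in region 3. Insertions were also more frequent in ending 2 in the flanks of these regions (for region 1, 0.856 and 1.98 IPM per kb). No region of Itga4 stood 2-fold above its flanks. These flanks, however, held all or part of other regions of Itga4, and some held its promoter or the second peak. They therefore cannot show whether the difference ran through the locus. Itgb1 region 6 was the only hypo-methylated region with fewer insertions in ending 2 (1.81 and 1.66). The Itgb2 region held 2.36 and 2.48. Of the 4 hyper-methylated regions at Itgb7, regions 1 (6.70 and 2.78, 2.41-fold), 2 (21.6 and 15.1, 1.43-fold) and 3 (6.29 and 3.50, 1.80-fold) held fewer insertions in ending 2, and region 4 was even (3.13 and 3.07, with overlapping intervals). Over all 859 hyper-methylated regions with insertions, 87.1% held fewer in ending 2 and 59.8% at least 1.5-fold fewer.

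**Figure D5:**
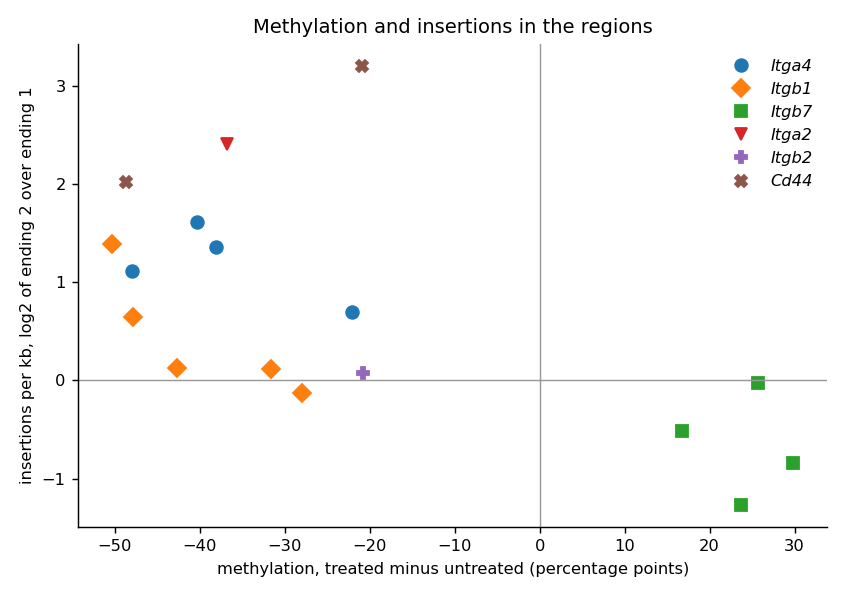
Difference in methylation (treated minus untreated, percentage points) of the 17 regions against the log2 ratio of their insertions per kb in ending 2 over ending 1. Each point is a region and its symbol gives the member; the Itgb7 regions lie to the right, at or below 0, and all others but Itgb1 region 6 (log2 ratio of -0.13) at the upper left.

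The genes that act with the members were looked at as 4 lists, to be read against the 20.6% higher and 18.4% lower among all genes tested. Of 18 other integrin subunits, 4 passed the filter and 8 had no reads in either group, among them Itgam (αM of Mac-1) and Itga5 (α5). Itga6 (0.522 and 9.63 CPM) had a higher level in treated cells, but was read in only 0.733% and 0.797% of the cells. Itga3 (11.3 and 0) and Itgb3 (21.0 and 0) were read in untreated cells only, and Itgav (37.5 and 27.6 CPM) differed by less than 2-fold. None of them was read in over 5.18% of the cells of a group, and their summed level was 70.3 CPM without and 44.2 CPM with treatment. Of 15 ligands, 5 passed the filter, of which Fn1, encoding fibronectin (0 and 29.5 CPM), Cdh1, encoding E-cadherin (0 and 13.0 CPM), and Icam2 (53.4 and 118 CPM) were at least 2-fold higher. Fn1 and Cdh1 were read in at most 1.20% of treated cells. The α4 ligand genes Vcam1 and Madcam1 had no reads.

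Of 31 genes that activate integrins or tie them to the cytoskeleton, 23 passed the filter, 3 were at least 2-fold higher and 1 lower, with a median log2 ratio of -0.05 (0.02 over all genes). Rasgrp1, which activates Ras after TCR signals, was at 186 and 74.7 CPM. Rap1a, a GTPase that switches integrins on, was at 49.8 and 111 CPM, and the adaptor Dok1 at 19.7 and 53.7 CPM. Tln1 and Fermt3, encoding talin and kindlin-3, which bind the β chain, were at 269 and 441 CPM and at 411 and 502 CPM. Skap1, an adaptor that links the TCR to integrins, was read in 57.1% of untreated and 34.3% of treated cells. Of 30 other leukocyte adhesion genes, 25 passed, 9 were higher and 2 lower, with a median of 0.34. Among the higher genes were Cadm1 (0 and 22.97 CPM), L1cam (0.278 and 19.6 CPM) and Alcam (0 and 14.6 CPM), each read in at most 1.99% of treated cells. The 2 lower genes were Cd96 (507 and 146 CPM, in 15.0% and 5.18% of the cells) and Cd99l2 (18.1 and 2.99 CPM). Cd99l2 was read in very few cells, and in a larger share of treated ones (0.366% and 0.797%). The summed level of this list was 7814 CPM without and 6910 CPM with treatment. Cd2, which binds CD48, was read in 48.4% and 28.7% of the cells. Skap1, Cd2, Cd96, Cd99l2, Tln1, Fermt3, Itgav, Itgam, Itga5, Vcam1 and Madcam1 were named after their values were seen. Hypo-methylated regions lay near 5 of 18 (27.8%), 1 of 15 (6.67%), 11 of 31 (35.5%) and 9 of 30 genes (30.0%) of these lists, respectively, as compared to 11.3% of all genes. Hyper-methylated ones lay near 1, 3, 8 and 6 genes (5.56%, 20%, 25.8% and 20%), as compared to 6.92%, again without regard to gene length. Neighbouring genes can count the same region, as Itgad, Itgam and Itgax did. In the same order, 7 of 18, 4 of 13, 4 of 29 and 7 of 30 promoters tested had at least 1.5-fold more insertions in ending 2. This compares to 12.1% of all promoters. At least 1.5-fold fewer were found in 1, 1, 0 and 1 of them, as compared to 2.6%. Most of the promoters with more insertions in ending 2 held few insertions. In ending 2 they were at no more than 4.29, 0.942 and 5.70 IPM in the first 3 lists. In the last list they were at no more than 14.2 IPM, apart from Alcam (27.2 and 50.5).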

How the data were processed

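The 9 members and the gene lists were chosen with earlier results of these data known. The authors aligned SmartSeq2 reads to GRCm38 with STAR and deposited raw read counts per gene and cell, which were used here as deposited. Only cells with a sub-cluster in the study's cell sheet were kept (273 of 284 untreated and 251 of 282 treated), and doublets were not looked for. Bisulfite reads were aligned by the authors to mm10 with BSMAP, regions were called with metilene, and the deposited fraction of methylation per group, from 0 to 1, is given here in percent. The deposited fractions and the means over the CpG sites lay within 0.01 of each other in only 1293 of 2873 regions. For Itgb7 region 4 they were 0.121 and 0.378 as deposited and 0.1825 and 0.379 over the sites (untreated and treated). The authors also deposited a q-value per region, used only as a threshold, and a column of mean differences, which was not used. A figure legend of the study gives 3 methylation replicates per group, of which 1 merged value per group was deposited, and how they were merged is not given in the sources used here. The deposited multiome fragments, aligned by the authors with BWA-MEM in Cell Ranger ARC, were taken as lines, each with its barcode and the count of its read pairs. All other assays of the series were not analysed here.

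Counts were summed per group, scaled to CPM by the total, and log2 ratios were taken after adding 1 CPM. Genes with a mean of at least 5 CPM were compared at a 2-fold ratio, and genes read in at least 5% of cells at a difference of 10 points. Regions within 50 kb of a gene body (GENCODE M21, GRCm38) were paired with it. Insertions at fragment ends of barcodes with at least 1000 fragments were counted 2 kb on either side of a start, and promoters with at least 100 insertions were compared at 1.5-fold. The genes named are all members, up to 3 per list with the largest ratio at a mean of at least 5 CPM, neighbours that hold a region, genes that overlap a member, chosen after the data had been seen, and the 3 genes most like Itga4 per group, besides those said to be named later. With 1 sample per group no test was run, and intervals of 95% cover counting error only, since reads are not molecules. Every column used was matched to a group or to both groups pooled, but the group of each barcode ending is not known. Python 3.11.15, numpy 2.4.6, pandas 2.3.3, scipy 1.17.1 and matplotlib 3.10.9 were used, and the calculations were tested on simulated data. The reference genome is that of C57BL/6J, and its part in the values of NOD cells was not tested. Alternatives were other normalisations, filters, lanes, reaches, CpG minimums and promoter widths. Leaving out cells with macrophage or hepatocyte reads, and keeping only cells with Cd3 reads, were added after the data had been seen. The sequences of some regions are not reported here.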

Additional observations from a re-analysis of the deposited data

How the results depend on the processing

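No paired analysis was possible because each group is 1 sample in every table used. Of the values under the alternatives, 278 stayed within the counting intervals (for methylation within 1 SD of the CpG sites, for counts of genes within 1.5 times, for the median of all genes within 0.1) and 86 moved beyond them. Among the differences past the fold or points used, 1 changed sign, which was the log2 ratio of Itga2 on lane 2 alone (-0.49, as compared to 1.16 over both lanes). The log2 ratio of Itga4 ranged from 2.96 to 3.75, its difference in shares from 16.6 to 22.7 points and the log2 ratio of its insertions from 1.27 (over the gene body in place of the promoter) to 1.42. These ranges leave out the sub-clusters, which were made from the same expression values: within sub-cluster 4 the log2 ratio of Itga4 was 0.29 (4.77 points), no longer 2-fold, and within sub-cluster 2 it was 4.29 (15.95 points). The log2 ratio of Itga1 ranged from 0.32 to 1.62, that of Itgb1 from -0.81 to 0.19 and that of Cd44 from -0.53 to 0.60, and neither Itgb1 nor Cd44, which were below 2-fold, kept 1 direction. The same held, among others, for the differences in the shares of Itgal (-4.09 to 4.70 points), Itgb2 (-4.41 to 13.4) and Cd44 (-13.8 to 0.83). On lane 2 alone, 1 member was 2-fold higher (3 on both lanes), 2 members were at least 10 points higher (1) and 1 lower (0), and 152 genes were at least 10 points higher (52) and 278 lower (99). Without a filter on low values, 3021 genes were 2-fold higher (1815) and 2583 lower (1626). Genes with a hypo-methylated region numbered 1210 within 10 kb and 3949 within 100 kb (2488 within 50 kb), and those with a hyper-methylated one 745 and 2424 (1520). With at least 20 CpG sites per region, 4 hypo-methylated regions near members (13) and 3 members with such a region (5) were left, as were 938 genes with a hypo-methylated and 889 with a hyper-methylated region. Within 500 bases of the start, 1 member (2) and 1296 promoters (1976) had 1.5-fold more insertions in ending 2, and over gene bodies 1 member had. The cause of these shifts was not tested.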
